A study of Homo sapiens with 8 samples.

Results

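The origins described here were mapped in all 3 ORC knockout lines and in none of the WT origins, and are called the shared knockout origins below. Each is an interval of the ORC1Δ origin list on chromosomes 1 to 22 or X that overlaps, by 1 bp or more, an interval in the ORC2Δ list and an interval in the ORC5Δ list, and overlaps no interval of the WT list. This left 4192 of the 33530 ORC1Δ origins on these chromosomes. Of the rest, 18263 overlapped an origin in all of the other lists, 3550 were shared with a single other knockout list and not WT, 4296 were in the ORC1Δ list alone, and 3229 overlapped a WT origin but not both other knockout lists. The 4 lists together hold 142864 intervals, 30195 of them from WT. The set was defined by peak calls on the same reads that are counted below, so its reads in WT and knockout cells are given as a description and were not tested.

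The cells are HCT116, an epithelial colon cancer line, on the p53−/− background that all 4 lines share. WT carries no ORC mutation, and ORC1Δ, ORC2Δ, and ORC5Δ cells carry CRISPR–Cas9 disruptions of ORC1, ORC2, and ORC5. The lines were grown alike, with no treatment named in the labels. A trace of truncated ORC2 protein has been described in the ORC2Δ line by others, and the study that made these data did not detect it. Each genotype is represented by a single line, with 2 replicates per line and 8 samples, so the genotype and the history of a line cannot be told apart. The replicates are merged in the count tables, which leaves no spread between replicates. All intervals given below cover counting error only, and reads are not independent molecules where PCR duplicates were kept.

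ORC is the complex that recognizes replication origins and, with CDC6 and CDT1, loads the MCM2–7 helicase on DNA in G1. ORC1, ORC2, and ORC5 are subunits of its ATPase core. Loaded helicases are later activated to open the DNA, and short nascent strands (SNS) grow from the points where synthesis begins. SNS-seq sequences these strands after RNA-primed DNA has been enriched, and the peaks are taken as origins. In mammalian cells, such origins have no consensus sequence of the kind known in budding yeast, but are often found in GC-rich DNA, near promoters, and at G-quadruplex motifs, where runs of G can fold into a 4-stranded structure. GC skew, the excess of G over C on a strand, is a further property of many origins.

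Sequences from both ends of the range of folds are shown first. They were picked by fold and do not stand for the whole set, in which 3355 of the 4192 had an absolute GC skew under 0.6 (0 is as much G as C, 1 is G or C alone on a strand). The 4 below are the central 180 bases of 4 of the origins with the highest log2 fold over WT in the line where it is smallest. All sequences are from the hg38 reference, on its forward strand, 5′ to 3′. Capitals mark the scarcer of G and C, that is, C where G prevails and G where C prevails. Capitals are rare, so G or C is confined almost to a single strand in these windows.
KLHDC4, chr16:87739000-87739179: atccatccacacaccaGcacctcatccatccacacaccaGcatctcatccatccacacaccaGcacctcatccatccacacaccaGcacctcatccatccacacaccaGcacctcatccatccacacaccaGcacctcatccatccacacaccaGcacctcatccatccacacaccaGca
CACNG4, chr17:67026231-67026410: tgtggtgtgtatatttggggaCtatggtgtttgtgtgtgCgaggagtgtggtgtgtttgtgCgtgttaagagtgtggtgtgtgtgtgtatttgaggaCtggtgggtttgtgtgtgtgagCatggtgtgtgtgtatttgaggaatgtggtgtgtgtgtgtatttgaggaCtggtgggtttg
ENSG00000255931, chr11:61497115-61497294: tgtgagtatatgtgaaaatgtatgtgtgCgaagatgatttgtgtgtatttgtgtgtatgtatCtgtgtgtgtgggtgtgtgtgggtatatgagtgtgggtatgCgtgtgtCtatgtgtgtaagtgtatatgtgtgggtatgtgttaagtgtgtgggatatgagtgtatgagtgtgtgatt
intergenic, chr4:555320-555499: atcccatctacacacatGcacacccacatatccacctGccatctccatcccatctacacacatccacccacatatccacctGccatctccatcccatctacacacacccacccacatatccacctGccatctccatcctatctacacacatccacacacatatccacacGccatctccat
The first and the fourth window, in an intron of KLHDC4 (a Kelch-repeat protein gene) and between genes on chromosome 4, are runs of C with A on the strand shown and hold 8 and 5 G. The second, in an intron of CACNG4 (an auxiliary subunit of voltage-gated calcium channels), and the third, in a lncRNA gene, are G with T and hold 6 and 4 C. For comparison, the same window of an origin near the medians of the whole set is shown, followed by the 2 with the lowest fold.
CAMK1D, chr10:12731690-12731869: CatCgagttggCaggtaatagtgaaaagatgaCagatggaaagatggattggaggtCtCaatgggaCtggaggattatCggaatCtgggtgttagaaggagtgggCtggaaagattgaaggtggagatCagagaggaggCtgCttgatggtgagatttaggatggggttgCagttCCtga
EHBP1, chr2:62787194-62787373: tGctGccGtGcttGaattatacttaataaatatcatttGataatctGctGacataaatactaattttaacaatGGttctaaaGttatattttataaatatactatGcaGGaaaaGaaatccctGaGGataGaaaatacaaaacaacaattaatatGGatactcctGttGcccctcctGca
NFIB, chr9:14350555-14350734: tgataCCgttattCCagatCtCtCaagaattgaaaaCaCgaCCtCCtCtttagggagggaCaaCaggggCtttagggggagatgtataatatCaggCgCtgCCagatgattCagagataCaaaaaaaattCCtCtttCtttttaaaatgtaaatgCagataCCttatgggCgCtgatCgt
The window in CAMK1D, a calmodulin-dependent kinase gene, has 16 C beside 70 G. Its GC skew is 0.63, beside 0.44 over the whole origin, so the window is more skewed than the origin it stands for. The windows in EHBP1, an endocytic adaptor gene, and NFIB, a transcription factor gene, hold G and C in nearly equal numbers, 24 G beside 30 C and 34 C beside 40 G. Over the whole origins, the GC skew is larger, at −0.209 in EHBP1 and 0.263 in NFIB. The last pair are windows around the longest runs of the 4-base unit ATCC or its complement GGAT in the set, with every copy in capitals.
SLC45A1, chr1:8322220-8322379: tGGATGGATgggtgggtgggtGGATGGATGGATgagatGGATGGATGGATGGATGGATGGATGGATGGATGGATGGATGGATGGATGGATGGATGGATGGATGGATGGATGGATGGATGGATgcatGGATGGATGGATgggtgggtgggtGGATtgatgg
ADAM12, chr10:126051485-126051633: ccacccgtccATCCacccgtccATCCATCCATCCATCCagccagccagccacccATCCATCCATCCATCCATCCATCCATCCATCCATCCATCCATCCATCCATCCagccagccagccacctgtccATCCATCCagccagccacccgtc
Counted in any rotation of the unit, the interval in SLC45A1, a sugar transporter gene, has 22 copies in its longest unbroken run. That count takes in lower-case bases on either side of the capitals. The interval in ADAM12, a metalloprotease gene, has 13.

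The WT cells had reads at every one of these origins, as in every row counted. Over all rows on these chromosomes, the lowest WT count was 8, 4, and 24 in the comparisons with ORC1Δ, ORC2Δ, and ORC5Δ. The presence of WT reads thus does not set these origins apart. In the table of WT and ORC1Δ, the lowest of the 4192 had 27 WT reads, the median 91, and the highest 920, beside a median of 117 reads in ORC1Δ. In the other tables, the medians were 91 WT beside 122.5 ORC2Δ reads, and 91 WT beside 131 ORC5Δ reads. Total reads in the tables were between 6416892 and 6878409 for WT, and 6691088, 7808290, and 8523971 for ORC1Δ, ORC2Δ, and ORC5Δ. Scaled to these totals as RPM (reads per 1e6 reads in the table rows), the medians were 14.2 in WT and 17.5 in ORC1Δ, 13.7 in WT and 15.7 in ORC2Δ, and 13.2 in WT and 15.4 in ORC5Δ. Each table counts reads in its own set of joined intervals, so the WT values differ between tables, at some origins widely. The 3 comparisons use the same WT reads and are therefore not independent of each other. The distributions in WT and knockout cells overlapped widely in all 3 tables.

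The median log2 fold over WT was 0.28 in ORC1Δ, 0.13 in ORC2Δ, and 0.16 in ORC5Δ, while origins present in all 4 lists had medians of −0.07, −0.04, and −0.02. RPM was above WT at 82.1% (ORC1Δ), 67.2% (ORC2Δ), and 76.4% (ORC5Δ) of the shared knockout origins. In ORC1Δ, 903 origins (21.5%; Wilson 95% interval 20.3 to 22.8) were up at least 1.5-fold. The count was 656 (15.6%; 14.6 to 16.8) for ORC2Δ and 486 (11.6%; 10.7 to 12.6) for ORC5Δ. Over all rows of the tables on these chromosomes, the shares were 7.03%, 4.65%, and 2.08%. A decrease of at least 1.5-fold was seen at 5, 7, and 1 of the shared knockout origins, beside 3.95%, 3.58%, and 0.68% of all rows. Since the rule asked for a peak call in each knockout line and none in WT, this direction was fixed by the choice, and nothing is read from these counts.

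How far apart the lines lay varied greatly among the 4192. An increase of 1.5-fold was met in no line by 3194 (76.2%), in a single line by 371, in 2 lines by 207, and in all 3 by 420 (10%; Wilson 95% interval 9.15 to 11). Of the 25684 ORC1Δ origins with a row in all 3 tables, 539 (2.1%) were up in all 3 lines, the 420 among them. The counting interval of the log2 fold lay above 0 in all 3 lines at 667 origins and included 0 in all 3 at 2298 (54.8%). At 388 origins (9.26%), RPM was below WT in all 3 lines, although a peak was called there in each knockout line and not in WT.

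Read density was then compared with that of called WT origins. In the table of WT and ORC1Δ, the rows that hold a WT origin had a median of 237.4 WT reads per kb, with a 5th percentile of 160. The shared knockout origins had a median of 182.1 WT reads per kb and 237.6 ORC1Δ reads per kb. At 2802 of them (66.8%; Wilson 95% interval 65.4 to 68.3), WT density was at or above that 5th percentile, and at 919 (21.9%) it was at or above the median of called WT origins. The origins up in all 3 lines had a median of 118.4 WT reads per kb, with 57 of 420 (13.6%) at or above the 5th percentile, beside 2562 of 3194 (80.2%) of those up in none. WT reads are the denominator of the fold, so this order follows from the way the 420 were chosen and nothing is read from it. Over the whole set, WT density reached from well below called WT origins to well within their range.

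**Figure D1:**
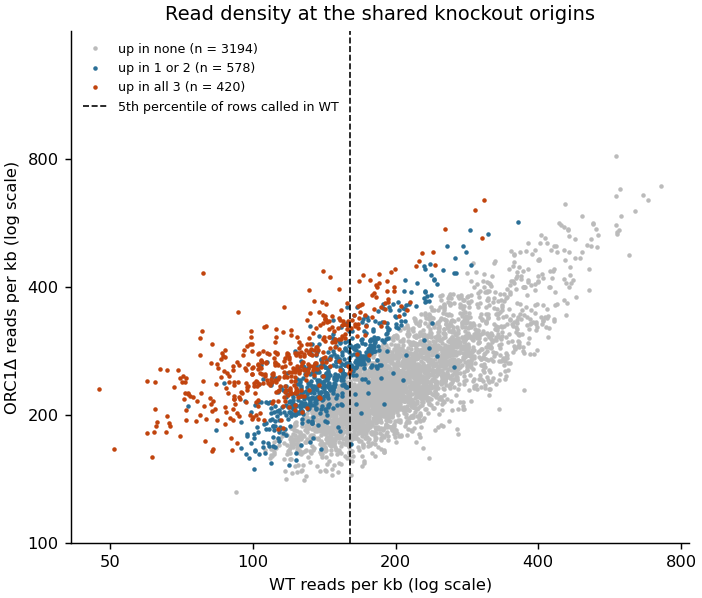
Reads per kb in WT (x axis) and ORC1Δ cells (y axis), both on log scales, at the 4192 shared knockout origins in the table of WT and ORC1Δ. Points are coloured by the number of knockout lines with an increase of at least 1.5-fold, and the dashed line is the 5th percentile (160 WT reads per kb) of rows that hold a WT origin, with most of the 420 origins up in all 3 lines to its left.

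The values of single origins show the range. At chr16:87738543-87739637, in an intron of KLHDC4, RPM was 13.4 in WT and 70.5 in ORC1Δ, 12.5 in WT and 71.1 in ORC2Δ, and 10.2 in WT and 32.6 in ORC5Δ. ORC1Δ and ORC2Δ stood highest and alike, and ORC5Δ lay between them and WT. The rows counted are 1095, 1060, and 873 bp long for ORC1Δ, ORC2Δ, and ORC5Δ, so the ORC5Δ value covers a shorter stretch. The log2 folds were 2.40 (95% counting interval 2.06 to 2.74), 2.51 (2.17 to 2.86), and 1.68 (1.30 to 2.08). A 23-base unit repeats there without a mismatch over 60 bases.

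At chr17:67025960-67026682, in an intron of CACNG4, 46 WT reads were set against 185 in ORC1Δ, 46 against 197 in ORC2Δ, and 48 against 183 in ORC5Δ, with log2 folds of 1.95, 1.86, and 1.62. All 3 knockout lines were above WT by a similar factor. At chr9:38628898-38630098, between genes, RPM was 8.88 in WT and 41.4 in ORC1Δ, 8.28 and 37.0 in ORC2Δ, and 4.65 and 12.4 in ORC5Δ. Here the ORC5Δ value was well below those of the other knockout lines. The row that holds the origin is 556 bp long in the table of ORC5Δ, beside 1201 and 1125 bp in those of ORC1Δ and ORC2Δ, and has 32 WT reads beside 57 and 55. At chr17:993278-994397, between genes, where a 15-base unit repeats without a mismatch over 60 bases, RPM was 12.6 and 40.8 for WT and ORC1Δ, 12.2 and 52.8 for WT and ORC2Δ, and 10.5 and 28.4 for WT and ORC5Δ. ORC2Δ was highest here and ORC5Δ lowest of the knockout lines, from rows of 1089 and 897 bp, beside 1120 bp for ORC1Δ. The remaining 4 of the 8 origins with the highest smallest fold, in C4orf50, in a lncRNA gene on chromosome 11, and between genes on chromosomes 4 and 10, had log2 folds from 1.45 to 1.98, with every counting interval above 0.8. The row of the origin on chromosome 10 is 1110 bp long in the table of ORC2Δ, beside 522 and 469 bp in those of ORC1Δ and ORC5Δ.

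Among the origins nearest to the medians were those in CAMK1D and between genes on chromosome 1. At the intergenic origin (chr1:31408242-31408721), 89 WT reads stood beside 110 ORC1Δ reads, 91 beside 114 ORC2Δ reads, and 90 beside 120 ORC5Δ reads. The log2 folds were 0.25 (−0.17 to 0.67), 0.09 (−0.32 to 0.51), and 0.11 (−0.30 to 0.52), so that all 3 intervals included 0. At the CAMK1D origin (chr10:12731554-12732005), 86 WT reads stood beside 121 ORC1Δ, 86 beside 110 ORC2Δ, and 81 beside 113 ORC5Δ reads. Its log2 folds were 0.43 (0.02 to 0.85), 0.12 (−0.30 to 0.55), and 0.17 (−0.25 to 0.60), with an interval above 0 in ORC1Δ alone. At the other end, the origin in NFIB (chr9:14350492-14350797) had RPM of 17.8 in WT and 10.5 in ORC1Δ, 18.1 and 13.3 in ORC2Δ, and 17.5 and 11.7 in ORC5Δ. Its log2 folds were −0.76 (−1.21 to −0.32), −0.44 (−0.83 to −0.05), and −0.57 (−0.97 to −0.18), lower than WT in every line. The origins in EHBP1, in HTR4 (a serotonin receptor gene), and between genes on chromosome 12 were likewise lower in all 3 lines, with log2 folds from −0.52 to −0.37. The row at HTR4 is 328 bp long in the table of ORC1Δ and 606 and 671 bp in the others.

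**Figure D2:**
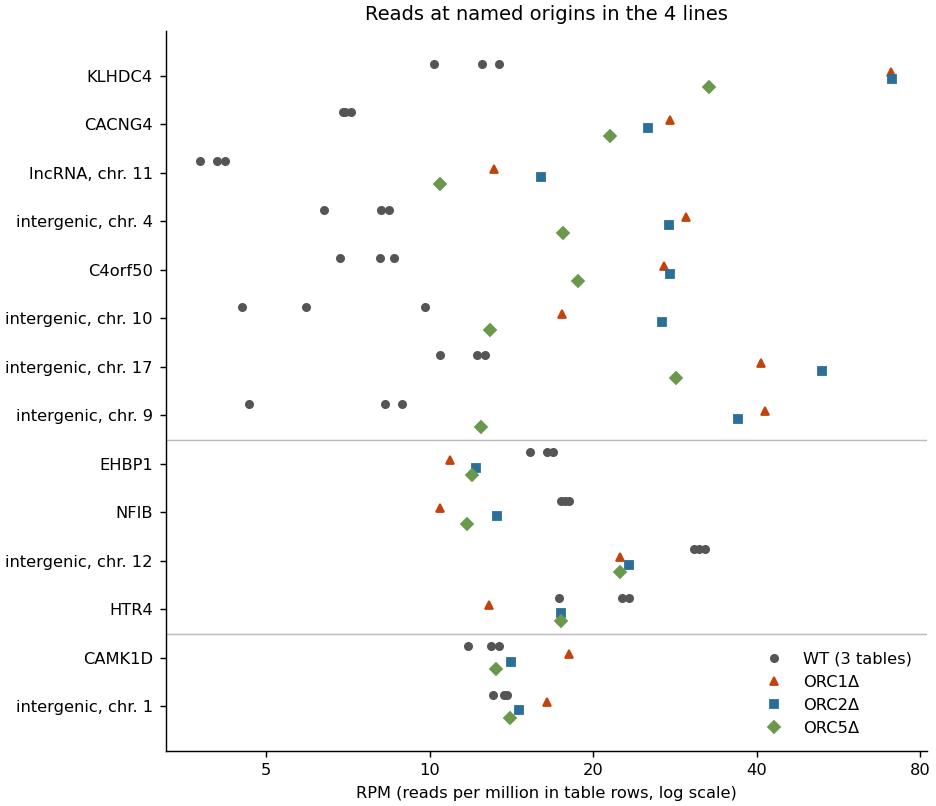
RPM in WT (grey circles, 1 per count table) and in ORC1Δ, ORC2Δ, and ORC5Δ cells on a log scale at origins named by rule, without error bars. From the top, the blocks are the 8 with the highest smallest fold, where all knockout values lie right of WT, the 4 with the lowest largest fold, where they lie left of the WT value of the same table, and 2 near the medians, where ORC2Δ and ORC5Δ lie close to WT.

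The shared knockout origins were shorter, poorer in GC, and more skewed than origins in all 4 lists. Median width was 488 bp beside 556 bp (Cliff's delta −0.2), median GC content 49.7% beside 55.9% (Cliff's delta −0.42), and median absolute GC skew 0.43 beside 0.37 (Cliff's delta 0.25). Each difference had the same sign on 23 of 23 chromosomes. Against the 4296 origins of ORC1Δ alone, they were wider (441 bp there), richer in GC (46.7%), and again more skewed (0.39), with the same sign on at least 22 of 23 chromosomes for each measure. The 3550 origins shared with a single other knockout list and not WT were nearer, with medians of 465 bp (Cliff's delta 0.10), 48.5% GC (0.11), and a skew of 0.41 (0.09), and the shared knockout origins had the higher median on 19, 21, and 19 of 23 chromosomes. GC content and skew are computed on the reference sequence inside each interval and not from the counts. Widths are those of the called peaks and so depend on reads. The peak calls that define the classes depend on reads, and no test of these differences was made.

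A G-quadruplex motif, defined as 4 runs of at least 3 G (or C) with loops of 1 to 7 bases, was present in 1480 of the 4192 (35.3%; Wilson 95% interval 33.9 to 36.8). Among origins in all 4 lists the share was 61%, among those shared with a single other knockout list and not WT 27.1%, among those of ORC1Δ alone 20.3%, and among the 2466 origins of WT alone 39.1%. A protein-coding transcription start lay within 2 kb of 418 of them (9.97%), beside 18.5% in all 4 lists and 6.15% in ORC1Δ alone. For both features, the shared knockout origins lay below the origins in all 4 lists on 23 of 23 chromosomes. By midpoint, 2084 (49.7%) were in an intron, 1500 (35.8%) were intergenic, 498 (11.9%) were in a lncRNA gene, and 110 (2.62%) were in an exon, and the share in introns was 54% for origins in all 4 lists. Within 5 Mb of a chromosome end lay 688 (16.4%), again between origins in all 4 lists (25%) and those of ORC1Δ alone (8.82%).

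Strong skew was most frequent in the shared knockout origins among the classes compared. An absolute GC skew of at least 0.6 was found in 837 shared knockout origins (20%; Wilson 95% interval 18.8 to 21.2), in 384 (10.8%; 9.84 to 11.9) of the 3550 shared with a single other knockout list and not WT, in 7.23% of origins in all 4 lists, in 4.98% of those of ORC1Δ alone, and in 1.5% of those of WT alone. The share was higher than in all 4 lists on 23 of 23 chromosomes, and higher than in those shared with a single other knockout list on 21 of 23. Tandem repeats, called where at least 90% of the bases in a 60-base window equal the base 1 period before, for periods of 2 to 60, were as frequent as in all 4 lists (15.7% and 15.6%) and more frequent than with a single other knockout list (8.31%) and in ORC1Δ alone (5.07%). Runs of at least 4 copies of ATCC, in any rotation and on either strand, occurred in 261 (6.23%), beside 3.06% in all 4 lists, 1.77% with a single other knockout list, and 1.02% in ORC1Δ alone.

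**Figure D3:**
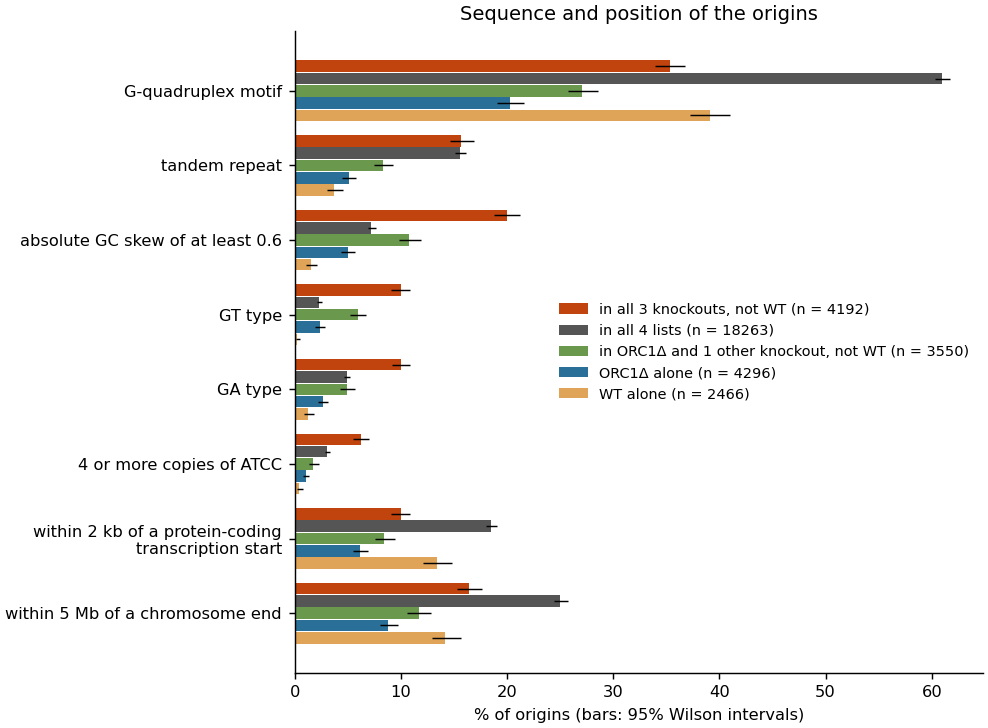
Percent of origins with each feature, with 95% Wilson intervals, for the 4192 shared knockout origins, the 18263 ORC1Δ origins in all 4 lists, the 3550 shared with a single other knockout list and not WT, the 4296 in ORC1Δ alone, and the 2466 WT origins in no other list. The shared knockout origins lie below the origins in all 4 lists for G-quadruplex motifs (35.3% and 61%) and above the other classes for strong GC skew (20%), where the nearest class has 10.8%.

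Within the shared knockout origins, the log2 fold went with the skew. In the table of ORC1Δ, the median was 0.11 at an absolute GC skew under 0.2 (303 origins), 0.15 between 0.2 and 0.4 (1451), 0.29 between 0.4 and 0.6 (1601), 0.67 between 0.6 and 0.8 (441), and 0.95 above 0.8 (396). In ORC2Δ, the medians in the same order were 0.06, 0.03, 0.09, 0.51, and 0.80. In ORC5Δ, they were 0.04, 0.09, 0.15, 0.46, and 0.69. The largest step between neighbouring bins came at a skew of 0.6 in all 3 lines, and in ORC1Δ and ORC5Δ the medians also rose before it. An increase of 1.5-fold in all 3 lines was met by 2 of the 303 origins in the lowest bin and by 235 of the 396 (59.3%) in the highest. Origins in all 4 lists, where the WT list does hold a peak, had lower medians in every bin but the same direction, and between the lowest and the highest bin they went from −0.17 to 0.55 (ORC1Δ), −0.07 to 0.45 (ORC2Δ), and −0.08 to 0.33 (ORC5Δ).

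**Figure D4:**
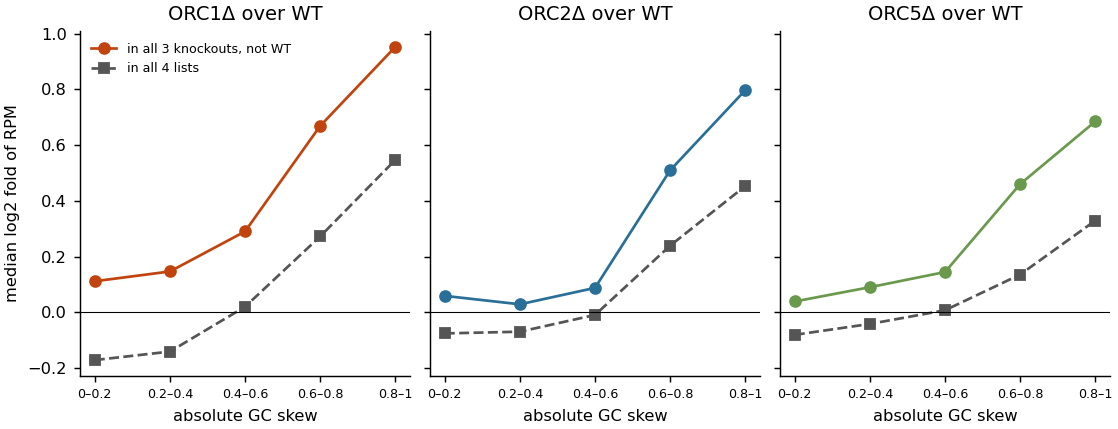
Median log2 fold of RPM over WT in each knockout line, by bins of absolute GC skew. Coloured circles are the shared knockout origins (303, 1451, 1601, 441, and 396 from left to right) and grey squares the origins in all 4 lists. Circles and squares lie higher in the bins from a skew of 0.6 than in those below it, and the circles lie above the squares in every bin.

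The strongly skewed origins were split into 2 types by their A and T, a split made after the values had been seen. No smallest excess of T or A was asked for, so origins with nearly as much A as T fall into either type. Whether the types form separate groups was not tested. In the GT type, T outnumbers A on the strand rich in G, so that the other strand is C with A, as in the windows of KLHDC4 and CACNG4 above. In the GA type, A outnumbers T on the strand rich in G, which makes that strand rich in purines. The shared knockout origins held 418 of the GT type (9.97%) and 419 of the GA type (10%). Among origins in all 4 lists, the shares were 2.31% and 4.92%, among those shared with a single other knockout list and not WT 5.92% and 4.9%, and among origins of WT alone 0.203% and 1.3%. Both types were more frequent in the shared knockout origins than in all 4 lists on 22 of 23 chromosomes, and more frequent than with a single other knockout list on 19 (GT) and 21 (GA).

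Reads differed between the types. Origins of the GT type had median RPM of 12.5 in WT and 25.6 in ORC1Δ, 12.1 in WT and 22.5 in ORC2Δ, and 11.3 in WT and 18.7 in ORC5Δ. Their medians were higher in each knockout line than in WT, with median log2 folds of 0.98, 0.81, and 0.70. Origins of the GA type had median RPM of 13.9 and 20.9, 13.9 and 19.3, and 13.1 and 17.6 in the same order, and median log2 folds of 0.60, 0.47, and 0.42. The 3355 origins with less skew had median log2 folds of 0.21, 0.06, and 0.11. On 23 of 23 chromosomes, the median fold of each type was above that of the less skewed origins in every line, and the GT type was above the GA type on 20, 20, and 21 of 23 chromosomes in ORC1Δ, ORC2Δ, and ORC5Δ.

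The counts up in all 3 lines followed the same order, with 251 of 418 of the GT type (60%), 112 of 419 of the GA type (26.7%), and 57 of 3355 of the rest (1.7%). The GT type thus gave 59.8% of the 420 origins up in all 3 lines and 1% of the 3194 up in none. In origins present in all 4 lists, the order was also the same, with medians of 0.52, 0.42, and 0.30 for the 422 of the GT type and −0.09, −0.05, and −0.03 for those with less skew. GT-type origins were wider (median 620.5 bp) than the less skewed (472 bp), and GC content was alike (49.2% and 50.4%).

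**Figure D5:**
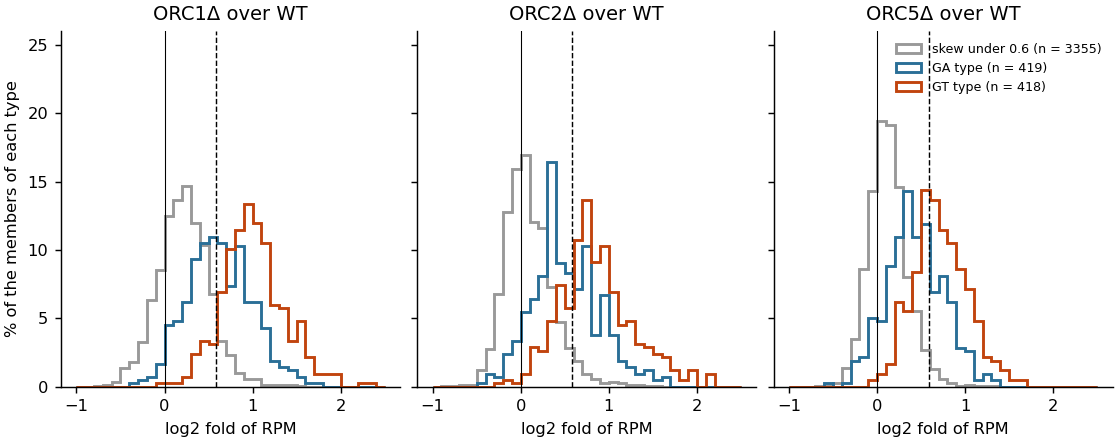
Distribution of the log2 fold of RPM over WT in each knockout line for the shared knockout origins of the GT type (418), the GA type (419), and an absolute GC skew under 0.6 (3355), in percent of each type and bins of 0.1. The solid line is 0 and the dashed line is 1.5-fold. The GT type lies furthest to the right in all 3 lines.

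Within the GT type, folds were alike with and without a tandem repeat by the definition above. The 209 of the GT type with a tandem repeat had median log2 folds of 0.98, 0.83, and 0.71, and the 209 without had 0.96, 0.78, and 0.67. In the GA type, the medians were 0.67, 0.60, and 0.50 with a repeat (164) and 0.56, 0.40, and 0.36 without (255). In the less skewed origins, they were 0.38, 0.28, and 0.23 with a repeat (286) and 0.20, 0.05, and 0.11 without (3069). The split rests on the threshold of 90% matching bases, and origins under it can still hold imperfect repeats. Repeats with periods over 60 bases were not searched for. How uniquely reads align was not tested, in the repeated origins or in any other origin of the set.

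The commonest 4-base unit, read in all rotations and on both strands, was ATCC in both strongly skewed types, at 15.6% of positions in the GT type and 22.3% in the GA type, beside 4.1% in the less skewed and 4.96% in origins of all 4 lists. The unit ACAC, the repeat of CA and GT, made up 6.64% of positions in the GT type and 0.962% in the GA type. The definition of a type limits which units it can hold. The 261 origins with at least 4 copies of ATCC had median log2 folds of 0.77, 0.60, and 0.55, and 107 of them (41%) were up in all 3 lines. At the SLC45A1 origin shown above (chr1:8321557-8322494), RPM was 17.6 in WT and 33.6 in ORC1Δ, 13.4 and 22.8 in ORC2Δ, and 13.4 and 20.5 in ORC5Δ, all higher than WT. At the ADAM12 origin (chr10:126051219-126051633), RPM was 11.5 and 14.9, 9.79 and 9.61, and 9.89 and 13.3, and the counting interval of the fold included 0 in every line.

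The extremes of skew and width were also examined. The 4 most skewed origins lay in RNFT2, SORCS2, and BPI and between genes on chromosome 12, with absolute GC skews of 1, 0.99, 0.98, and 0.99. At the RNFT2 origin (chr12:116789018-116789961), which has no C on its forward strand, the log2 folds were 1.17, 1.14, and 0.93. At the SORCS2 origin (chr4:7695318-7695662) they were 0.44, 0.65, and 0.39, and at the intergenic one 0.45, 0.39, and −0.07. Extreme skew was therefore found both with and without a large fold. The widest origin, of 2845 bp in an intron of MYEOV (chr11:69322317-69325161), had RPM of 71.8 in WT and 142.4 in ORC1Δ, 69.1 and 134.5 in ORC2Δ, and 68.0 and 106.6 in ORC5Δ. Of the 193 origins of at least 1000 bp, 84 (43.5%) were up in all 3 lines, beside 32 of the 978 (3.27%) under 400 bp. Width is that of the peak called on ORC1Δ reads, which also enter the ORC1Δ fold. Width and fold are thus not independent, and nothing is read from this order.

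The 420 origins up in all 3 lines differed from the rest of the set in position as well. Within 5 Mb of a chromosome end lay 147 (35%), beside 406 (12.7%) of the 3194 up in none. A G-quadruplex motif was present in 62 (14.8%) and in 1255 (39.3%). A protein-coding start was within 2 kb of 21 (5%) and of 363 (11.4%), and 5 (1.19%) overlapped an exon, beside 277 (8.67%). The median distance to the nearest WT origin was 8840 bp for those up in all 3 and 34711 bp for those up in none. Among the GT type, the share up in all 3 lines was 55.2% within 5 Mb of an end (85 of 154) and 62.9% elsewhere (166 of 264).

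By chromosome, the share of ORC1Δ origins that were shared knockout origins was lowest on chromosome 19 (225 of 2360, 9.53%; Wilson 95% interval 8.41 to 10.8) and highest on chromosome X (51 of 285, 17.9%; 13.9 to 22.8). On chromosome X, 13 of 51 were up in all 3 lines, with a median absolute GC skew of 0.56. On chromosome 3, 1 of 202 was up in all 3 lines, with a median skew of 0.42. Over all 23 chromosomes, the set made up 4192 of 33530 ORC1Δ origins. Of the set, 420 (10%) were up in all 3 lines, and its median absolute GC skew was 0.43. Chromosomes X and 3 are 2 of 23, and nothing is read from their counts.

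The nearest WT origin was a median of 26650 bp away, beside 7006 bp for origins in all 4 lists (to the nearest WT origin not overlapping them) and 62416 bp for those of ORC1Δ alone. A WT origin was within 1000 bp of 6.11% of them, and 995 (23.7%) had none within 100000 bp. The median log2 folds were 0.41, 0.26, and 0.26 for the former and 0.22, 0.04, and 0.07 for the latter. At the limit of the rule, the member with the smallest overlap with the ORC5Δ list (chr8:74200032-74200538) shared 55 bp and had log2 folds of 0.28, −0.08, and 0.32, and the smallest overlap with the ORC2Δ list was 115 bp (chr2:3651105-3651426; 0.21, 0.22, and −0.08). Just outside it, an origin by ZNF574 in all 4 lists shared 45 bp with a WT origin (chr19:42077628-42078457; 0.21, 0.33, and 0.18). The member nearest to a WT origin was 34 bp from it (chr11:69819842-69820242; 0.38, 0.02, and 0.14). Few members were close to the limit of overlap, as the ORC2Δ and ORC5Δ lists covered 99% and 98.9% of the members by at least 50% of their length. More were close to a WT origin, with 6.11% within 1000 bp and a further 618 (14.7%) at 1000 to 5000 bp.

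Along introns, the strand rich in G was the coding strand at 469 of 851 shared knockout origins with an absolute skew under 0.4 (55.1%; Wilson 95% interval 51.8 to 58.4), at 513 of 796 between 0.4 and 0.6 (64.4%; 61.1 to 67.7), and at 209 of 394 from 0.6 (53%; 48.1 to 57.9). Moderately skewed origins thus had G more often on the coding strand, and for the strongly skewed ones the interval included 50%. In all 4 lists, the shares were 57.3%, 61.6%, and 52.1%.

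Genes of 7 fixed lists were then examined, counting the shared knockout origins that overlap them beside all ORC1Δ origins. The counts up in all 3 lines or in none stand beside 10% and 76.2% over the whole set. Genes whose symbols begin with CACN, KCN, SCN, or HCN, which include voltage-gated channels, other potassium channels, and a channel-interacting protein (KCNIP3), held 33 (0.787%, beside 1.18% of all ORC1Δ origins), 6 of them up in all 3 lines and 21 in none. The origin in CACNG2, which encodes the calcium channel and AMPA receptor subunit stargazin (chr22:36606483-36607167), had RPM of 7.48 in WT and 18.2 in ORC1Δ, 6.48 and 14.9 in ORC2Δ, and 5.96 and 13.1 in ORC5Δ, each knockout line more than 2-fold above WT. That in KCNJ18, an inward rectifier potassium channel gene, had log2 folds of 0.98, 0.94, and 0.76. That in KCNG2 had 1.36, 0.62, and 0.78, from rows with 44, 137, and 152 WT reads. The latter 2 rows are 1306 and 1434 bp long and reach beyond the origin, so these folds cover different stretches. Zinc finger (ZNF) genes held 33 (0.787%, beside 0.904%), with 3 up in all 3 lines, near the share of the whole set. At the ZNF423 origin (chr16:49627140-49628516), in a transcription factor gene, 185 WT reads stood beside 511 ORC1Δ, 571 ORC2Δ, and 464 ORC5Δ reads, and the log2 folds were 1.41, 1.39, and 1.02. Those in ZNF469 (1.03, 1.02, and 0.75) and ZNF536 (1.06, 0.86, and 0.68) were also up in all 3 lines.

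Large genes of common fragile sites held 20 (0.477%, beside 0.224%), in 7 genes, with a single origin up in all 3 lines and 18 in none. That origin lies in RBFOX1, which encodes a splicing regulator (chr16:5487802-5488723), and its RPM was 14.6 in WT and 32.3 in ORC1Δ, 15.5 and 31.0 in ORC2Δ, and 14.4 and 28.3 in ORC5Δ. All 3 lines were close to 2-fold above WT. RBFOX1 alone held 9 members among its 21 ORC1Δ origins, so the share of this list leans on a single gene. Cadherin and protocadherin genes held 17 (0.406%, beside 0.37%), of which the origin in CDH5, the gene of vascular endothelial cadherin (chr16:66380243-66380927), was up in all 3 lines, with log2 folds of 1.13, 0.75, and 0.78.

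Genes of origin licensing and firing held 2 of the 4192, in MCM4 and MCM5, which encode helicase subunits, among 19 ORC1Δ origins in such genes (0.0477% of the set, beside 0.0567% of all ORC1Δ origins). Their log2 folds were 0.43, 0.29, and 0.09 for MCM4 and 0.15, −0.08, and 0.01 for MCM5, with every counting interval including 0. Colorectal cancer driver genes held 1 of 30, in an intron of NRAS, with log2 folds of 0.03, −0.27, and −0.14. HOX genes held 2 of 24, in HOXC4 and HOXD11, with log2 folds between −0.19 and 0.19. None of these 5 was up in any line, as for 76.2% of the whole set, and so few origins say nothing of these genes as groups.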

How the data were processed

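SNS-seq was done in HCT116 p53−/− WT, ORC1Δ, ORC2Δ, and ORC5Δ cells, 2 replicates each. The authors trimmed reads (Trim Galore 0.6.4 in the submitters' processing notes), aligned them with Bowtie to GRCh38 (hg38), called MACS2 peaks per replicate, and deposited the peaks found in both replicates as coordinates with no score, a unit called other here. The deposited counts are whole reads per joined origin of WT and 1 knockout line, without normalization and with replicates merged. The counting tool and the handling of duplicates are not given in the sources used here.

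Counts were divided by the total of the column, other contigs included, to give RPM, and log2 folds used no pseudocount or filter. Reads of a member are those of all rows it overlaps, 2 rows for 7 members in the ORC2Δ and 16 in the ORC5Δ table. A row also held a WT origin for 19 members in each of these tables, and 31 and 37 members shared a row with another member. An origin was called up or down at 1.5-fold, after the study's methods. Shares have Wilson 95% intervals and folds of single origins 95% Clopper-Pearson intervals. No test was run. GC content, GC skew, repeats, and motifs were computed on the hg38 sequence, and genes came from GENCODE release 44. All 4192 members had reads in every table, and 4188 reached a sum of 100 over WT and the knockout line in each of them.

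Named origins were the 8 with the highest smallest and the 4 with the lowest largest log2 fold, with at least 100 reads in each table, the 4 most skewed, the 3 widest, the 3 with the longest ATCC runs, the 3 nearest the medians, those at the limits of the rule, and up to 4 per gene list by the smallest fold. Some origins and sequences that these rules name are not reported here. The members, gene lists, and rules were chosen with earlier results of these data known. The scripts were checked on simulated data. Sequences were read with pysam 0.24.0 and values computed in Python 3.11.15 (scipy 1.17.1, numpy 2.4.6, numba 0.67.0, pandas 2.3.3), and edgeR 4.0.16 in R 4.3.3 gave the TMM factors of an alternative scaling. The alternatives covered the rule of the set, the scaling, the threshold, a read filter, a GC correction, and the windows and motif definitions.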

Additional observations from a re-analysis of the deposited data

How the results depend on the processing

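Of 70 values recomputed under alternative settings, 47 stayed within the 95% interval of the value given (for counts, within 1.5 times it), and 23 moved. The values were counts, shares, and medians of GC content and absolute GC skew. No median log2 fold and no difference between classes was among them. The number of members lay between 3318 and 4185. The share up 1.5-fold in ORC1Δ was 24.7% when scaled to rows shared with WT, 7.23% at 2-fold, 16.3% after removal of the running median of the fold over GC content, and 18.8% for members with no WT origin within 5000 bp. In ORC2Δ it was 17.0% with TMM or median-of-ratios scaling, 4.80% at 2-fold, and 13.5% without WT origins within 5000 bp, and in ORC5Δ 2.46% and 10.2% with the last 2 changes. The number up in all 3 lines was 92 at 2-fold and 387 to 445 under the other settings, with 387 after removal of 5 Mb blocks whose median log2 fold exceeds 0.25 in any table, which hold 242 members. Median GC content was 49.4% in 500 bp windows and 49.3% without WT origins within 5000 bp. Median absolute GC skew was 0.410 in 500 bp windows, 0.419 with the ORC2Δ or the ORC5Δ list as the base, and 0.416 without WT origins within 5000 bp. Tandem repeats fell to 13.9% without WT origins within 5000 bp and 10.1% at 95% matching bases, and G-quadruplex motifs were found in 33.5% of 500 bp windows and 55.4% with loops of up to 12 bases. Chosen after seeing the data, the share of the GT type up in all 3 lines was 53.1% at a skew of at least 0.5 and 65.2% at 0.7. The cause of these shifts was not tested, other than by what each setting changes.

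No paired analysis was possible because the count tables merge the replicates of a line, and leaving out a replicate could not be run for the same reason. With a median of about 91 WT reads per origin, the counting interval of a single fold is wide, and 54.8% of the members had intervals including 0 in all 3 lines. GC content moved with the fold in ORC1Δ, where the median log2 fold was 0.39 at 40% to 50% GC and −0.01 at 60% or more. Its part in the difference between members and other origins was not tested.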

Other observations

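Some long genes held several members, and those given here were picked after the values were seen. SORCS2, which encodes a sorting receptor, held 11 members among its 43 ORC1Δ origins over 0.55 Mb, RBFOX1 held 9 of 21 over 2.47 Mb, and RBFOX3, which encodes the neuronal marker NeuN, held 7 of 47 over 0.522 Mb. The lowest and highest log2 folds in SORCS2 were −0.19 and 1.46 (ORC1Δ), −0.13 and 1.34 (ORC2Δ), and 0.04 and 1.14 (ORC5Δ), and 3 of the 11 were up in all 3 lines. In RBFOX1, 1 of the 9 was up in all 3 lines, and in RBFOX3 2 of the 7. CEP112, a centrosomal protein gene, held 6 of 16 and had none up in all 3 lines, with median log2 folds of 0.13, 0.02, and −0.05. Over all ORC1Δ origins, 4192 of 33530 were members, and 10% of the members were up in all 3 lines. Counts this small in genes picked after the fact say nothing of the genes. In all, 1592 protein-coding genes held at least 1 member.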
